A study of Mus musculus with 6 samples.

Results

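The 9 genes described here encode AP-1 and BATF transcription factors, namely Jun, Junb and Jund, then Fos, Fosb and Fosl2, and lastly Batf, Batf3 and Atf3. They were taken by gene symbol and make up 9 of the 23420 entries of the expression table, each with a value in all 6 libraries. The libraries were RNA-seq of induced T (iT) cells sorted from spleen, 3 of CD4 single-positive (CD4SP) and 3 of CD8 single-positive (CD8SP) cells, with 1000 cells each. Both populations descended from iR9 embryonic stem cells of C57BL/6 background, whose Rosa26 locus carries a doxycycline-inducible Runx1-p2a-Hoxa9 cassette, so the cassette is shared and no wild-type cell is among these libraries. Doxycycline was given during differentiation in culture, and the resulting blood progenitors were injected into irradiated B-NDG mice that were 8 to 10 weeks old. B-NDG is a NOD strain with the Prkdc Scid and Il2rg tm1 alleles, which leave the host without its own T, B and NK cells but with myeloid cells. CD45.2+ donor cells were sorted 5 weeks later on CD4 or CD8, after gating out erythroid and myeloid cells by Ter119 and CD11b among other markers, and the gate used neither CD3 nor the T cell receptor. The study describes each library as a biological replicate, without the number of stem cell clones or mice behind them, and the labels do not tie a library to a mouse. The p-values therefore measure the spread between these libraries. Levels are in TPM, which scales each library to a fixed total and measures abundance per transcript length, so that genes can be compared but sequencing depth is not kept. In such bulk samples, fewer cells that express a gene and less RNA per cell cannot be told apart.

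AP-1 factors are dimers of basic leucine zipper proteins. Jun proteins pair with each other or with Fos proteins, which need a Jun partner to bind DNA, and T cell receptor signalling through MAP kinases induces several of these genes within minutes as immediate-early genes. BATF proteins lack a transactivation domain of their own and pair with Jun proteins, often beside IRF4 at composite DNA elements, while AP-1 also binds beside NFAT at cytokine genes of activated T cells.

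All 3 of the most abundant members, Junb, Batf and Fos, had higher levels in CD4SP than in CD8SP iT cells, with no overlap between the populations. Of all tested genes, 36.6% likewise had every CD4SP library above every CD8SP library. Genes were called on a limma adjusted p under 0.05 together with more than a 2-fold change on the log2(TPM + 1) scale. By this rule 3 of the 9 members were called, all higher in CD4SP: Fos by 2.51-fold, Junb by 2.17-fold and the weakly expressed Atf3 by 2.63-fold. Atf3 reached 1 TPM in CD4SP alone and so had to differ to be tested, which leaves Fos and Junb as the called genes among the 7 members that reached it in all 6 libraries. Batf was 1.80-fold higher and passed the adjusted p but not the fold. Of all 10476 genes tested, 9.73% were called in either direction and 7.92% were called as higher in CD4SP. Jun and Fosb also passed the adjusted p without reaching 2-fold, so 5 of these 7 passed it, and Atf3 besides, against 17.6% of tested genes that did so as higher in CD4SP. With the replicate number as a block, Jun (limma adjusted p 0.0681) and Fosb (limma adjusted p 0.0958) no longer passed, which left 3 of the 7, Fos, Junb and Batf, and the same 3 passed under each of the 3 rescalings described below. Fosl2 and Jund did not pass, and Batf3 was too low to be tested.

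The comparison of 1 population with the other was shifted as a whole, which bears on each member's difference. The median log2 difference of all tested genes was 0.28 in favour of CD4SP, and transcripts of 85 ribosomal protein genes took 24.1 to 28.8% of TPM in CD4SP and 32.2 to 36.0% in CD8SP libraries. Of all called genes 81.5% were higher in CD4SP, and this share was 62.0% with median-of-ratios rescaling, 57.1% with quantile normalization and 72.7% once the ribosomal protein genes were removed. Above the median of all genes, the log2 difference was 1.11 for Atf3, 1.05 for Fos and 0.83 for Junb. It was 0.59 for Jun, 0.56 for both Batf and Fosl2, 0.31 for Fosb and 0.21 for Jund. All 8 tested members were higher in CD4SP under each of these scalings, but only Fos was called under all of them.

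The labels were checked against markers. Cd4 and Zbtb7b were called with higher levels in CD4SP, as were Cd8a and Cd8b1 in CD8SP. Cd4 was at 279 to 331 TPM in CD4SP and at most 0.104 TPM in CD8SP. It thus entered the test only through CD4SP and had to differ to be tested. The 9 T cell markers found in the table summed to between 7990 and 8304 TPM in CD4SP and between 6386 and 7217 TPM in CD8SP. The B cell markers Ms4a1, Pax5 and Fcer2a were listed at 0 in all libraries. The myeloid markers S100a8, S100a9 and Mpo were listed at 0 throughout, while Lyz2 was called higher in CD4SP and the 10 myeloid markers found summed to between 18.8 and 35.1 TPM there, against 6.50 to 12.01 TPM in CD8SP. The 8 NK cell markers summed to between 119 and 122 TPM in CD4SP and between 510.0 and 591.7 TPM in CD8SP. Of these, Ncr1 and Klra8 were listed at 0 in all libraries, while Klrd1, Eomes and Klrb1c were called as higher in CD8SP. Klrb1c was at 0.682 to 1.82 TPM in CD4SP and 5.22 to 9.14 TPM in CD8SP. The 6 erythroid and stromal markers found summed to at most 6.68 TPM. Of 12 regulatory T cell markers 11 were called higher in CD4SP, and the list summed to between 4048 and 4436 TPM there against 649 to 759 TPM in CD8SP. Among the called ones, Gpr83 was listed at 0 in all CD8SP libraries. It entered the test only through CD4SP and had to differ to be tested. The regulatory T cell and NK cell lists and Lyz2 thus moved with the populations that the AP-1 genes are compared over, and their part in the members' differences was not tested.

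The positions of the members, from GENCODE M21 on GRCm38 (the assembly of mm10), place several of them near each other. Fos (chr12:85473890-85477273, plus strand, 4 exons) lies 209395 bp from Batf (chr12:85686669-85709087, plus strand, 3 exons), with Jdp2, another gene of the AP-1 family, as the only protein-coding gene between them. Batf3 (chr1:191097847-191108945, plus strand, 4 exons) lies 61350 bp from Atf3 (chr1:191170296-191218039, minus strand, 4 exons). The longest transcript of each Jun gene has a single exon. Jun lies at chr4:95049034-95052222 on the minus strand, Junb at chr8:84974484-84978718 on the minus strand and Jund at chr8:70698949-70700616 on the plus strand. Fosb is at chr7:19302696-19310051 on the minus strand and Fosl2 at chr5:32135801-32157842 on the plus strand, with 4 exons each.

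Promoters were read because Fos, Junb and Batf moved together. RefSeq windows on GRCm38.p6, from 250 bases before to 50 after each start, were matched for all 9 members by symbol and searched on both strands for 6 motifs. The cyclic AMP response element, bound by CREB and ATF proteins, was searched whole as TGACGTCA, as the 6-letter part TGACGT and as the 5-letter part TGACG, each of which also matches where the longer one does. The AP-1 element was searched as TGANTCA, its variant with an added base as TGACNTCA, which also matches the whole response element, and the TATA box as TATAAA. Among all 32851 promoters of the same length, TGACGTCA was in 1.79%, TGACNTCA in 8.83%, TGANTCA in 7.81%, TGACGT in 7.51%, TGACG in 20.8% and TATAAA in 13.6%. The members' windows held TGACGT in 3 of 9, namely Fos, Batf and Atf3, and TGACG in these and in Fosb and Junb. TATAAA was in 2 of 9, Fos and Junb, and TGACNTCA in Jun alone, while TGACGTCA and TGANTCA matched none. The stretches around every match of TGACGT, TGACNTCA and TATAAA are shown, and those of the shorter TGACG in Fosb and Junb and of a further one in Fos are not. Each is printed 5′ to 3′ on the gene's own strand with the matched letters in capitals.
Fos response element part, bases -66 to -61 from the start, chr12:85473815-85473838, plus strand: tccgcccagTGACGTaggaagtcc
Fos TATA box, bases -33 to -28, chr12:85473848-85473871, plus strand: cagcgcttcTATAAAggcgccagc
Batf response element part, bases -98 to -93, chr12:85686613-85686636, plus strand: ctaacttgtTGACGTttccgccca
Atf3 response element part on the opposite strand, bases -8 to -3, chr1:191183334-191183350, minus strand: aatagcattACGTCAgc
Jun AP-1 variant, bases -45 to -38, chr4:95052251-95052276, minus strand: gcctcggggTGACATCAtgggctatt
Junb TATA box, bases 1 to 6 of the RefSeq transcript and -30 to -25 from the GENCODE start, chr8:84978743-84978757, minus strand: caaattcagTATAAA
The RefSeq and GENCODE starts coincided for Fos and Jun and were 6 bp apart for Fosb, 30 bp for Junb and 51 bp for Batf. They were 567 bp apart for Batf3, 671 bp for Fosl2, 1210 bp for Jund and 34706 bp for Atf3. For Batf3, Fosl2, Jund and Atf3 the GENCODE start thus lies outside the window, which describes the RefSeq start alone.

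Among the Jun genes, Junb, which in T cells can both partner BATF and stand in for other Jun proteins, had the highest level of all 9 members in both populations. In replicates 1 to 3 it was at 393, 302 and 351 TPM in CD4SP and at 186, 165 and 132 TPM in CD8SP, the order kept for all members. Each CD4SP library lay well above the highest CD8SP library. The log2 difference was 1.12 (SE 0.159, 95% interval 0.75 to 1.48, limma adjusted p 0.0024). Under the 3 rescalings it was 0.96 without ribosomal protein genes, 0.93 by quantiles and 0.81 by median of ratios (limma adjusted p 0.00287, 0.00314 and 0.00386), so the direction held and the 2-fold limit was not reached. Without CD8SP replicate 3, its lowest CD8SP library, it was 0.98 and also under 2-fold. Exons of Junb overlap by 173 nt with those of Prdx2, a peroxidase gene on the opposite strand, and whether the counting used strand is not given in the sources used here. Prdx2 was at 426 to 513 TPM in CD4SP and 256 to 301 TPM in CD8SP, a log2 difference of 0.74 (SE 0.122, limma adjusted p 0.00448), so reads of the shared stretch cannot be assigned to either gene.

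Jun, the founding AP-1 subunit, was 17.2 to 44.8 times below Junb within each library. It was at 8.77, 17.5 and 12.8 TPM in CD4SP and at 6.38, 5.59 and 7.30 TPM in CD8SP. The CD4SP libraries were all higher but spread widely, the lowest of them close to the highest CD8SP library. The log2 difference was 0.88 (SE 0.263, 95% interval 0.27 to 1.48, limma adjusted p 0.0476). The adjusted p was 0.112 without ribosomal protein genes, 0.223 after median-of-ratios rescaling and 0.324 after quantile normalization. It stayed under 0.05 in 4 of 17 alternatives, among them the lifted fold limit, which repeats the reported p. Without CD4SP replicate 1 the log2 difference was 1.11 (limma adjusted p 0.0241) and Jun was called. Leaving out any other library gave 0.65 to 0.96 with limma adjusted p of 0.0628 to 0.143. Jun overlaps the antisense gene Junos over 232 nt of exon.

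Jund, a Jun subunit that many cell types keep at a steady level, was at 8.11, 7.66 and 11.4 TPM in CD4SP and at 5.62, 4.23 and 9.18 TPM in CD8SP. The populations overlapped, since CD8SP replicate 3 was above 2 of the CD4SP libraries. The log2 difference was 0.49 (SE 0.290) with a 95% interval of -0.17 to 1.15 and a limma adjusted p of 0.252, which leaves differences from slightly lower to over 2-fold higher in CD4SP. It was 0.27 without CD8SP replicate 2 and 0.75 without CD8SP replicate 3. The 3 rescalings gave 0.36 without ribosomal protein genes, 0.22 by median of ratios and 0.11 by quantiles. With library weights it was 0.74 (limma adjusted p 0.0485), the sole alternative of 17 in which the p was under 0.05. Its transcript of 1668 nt overlaps the antisense gene Gm11175 over 877 nt of exon, and at 67.2% it has the highest GC content of the 9 members.

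**Figure D1:**
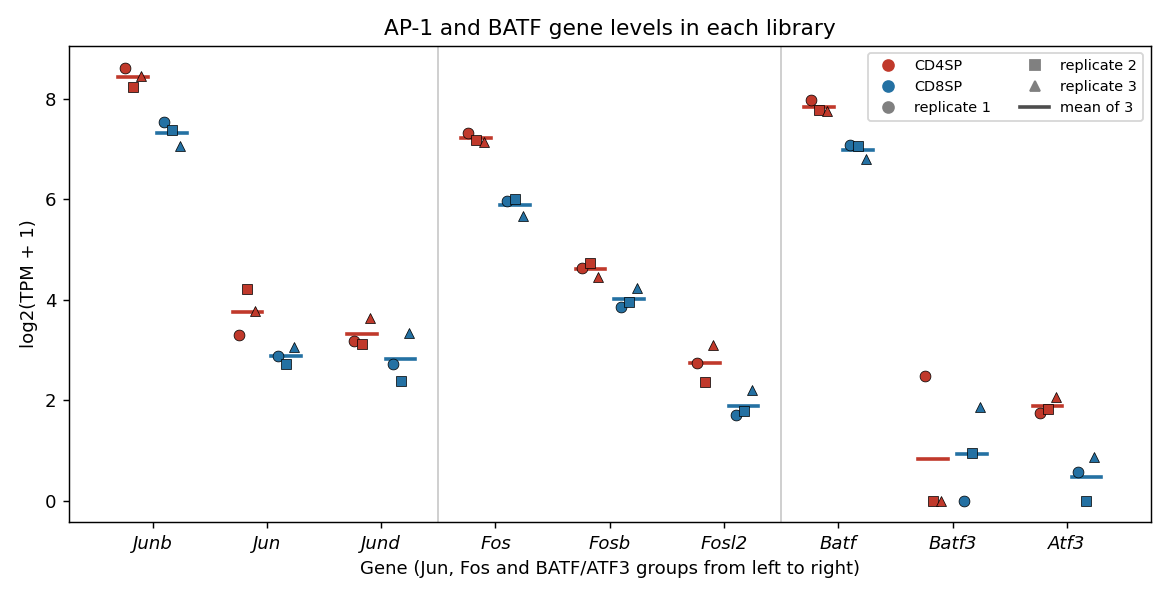
Level of each AP-1 and BATF gene as log2(TPM + 1) in each of the 6 libraries, with CD4SP in red, CD8SP in blue, replicates by marker shape and bars at the mean of 3. The CD4SP points lie above all CD8SP points for every gene but Jund, whose populations overlap, and Batf3, which is listed at 0 in 3 libraries.

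Of the Fos genes, Fos itself, the classic immediate-early gene, gave the smallest adjusted p of the members. It was at 159, 143 and 141 TPM in CD4SP and at 61.8, 63.2 and 50.1 TPM in CD8SP. A wide gap separated the lowest CD4SP from the highest CD8SP library. The log2 difference was 1.33 (SE 0.136, 95% interval 1.02 to 1.64, limma adjusted p 0.000486). Fos was called in 17 of 17 alternatives, with log2 differences between 1.03 and 1.39 and limma adjusted p between 8.06e-05 and 0.00372.

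Fosb, a second immediate-early Fos gene, was at 23.9, 25.6 and 21.0 TPM in CD4SP and at 13.5, 14.6 and 17.7 TPM in CD8SP. The populations did not overlap, but the highest CD8SP library, replicate 3, was close to the lowest CD4SP library. Its log2 difference was 0.59 (SE 0.176, 95% interval 0.19 to 0.99, limma adjusted p 0.0453). That p was 0.136 without ribosomal protein genes, 0.348 after median-of-ratios rescaling and 0.438 after quantile normalization. It stayed under 0.05 in 6 of 17 alternatives, among them the lifted fold limit, which repeats the reported p. With 1 library left out it was 0.0498 without CD8SP replicate 3 and 0.0522 to 0.178 without any of the others.

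Fosl2, which encodes Fra-2, was at 5.66, 4.16 and 7.56 TPM in CD4SP and at 2.24, 2.43 and 3.58 TPM in CD8SP. All CD4SP values were above all CD8SP values, with a narrow gap between CD4SP replicate 2 and CD8SP replicate 3. The log2 difference of 0.84 (SE 0.276, 95% interval 0.21 to 1.47) did not pass, with a limma adjusted p of 0.0619. Without CD4SP replicate 2, its lowest CD4SP library, the log2 difference was 1.03 (limma adjusted p 0.0267) and Fosl2 was called, as it was with library weights (1.10, limma adjusted p 0.00616). Leaving out any other library gave limma adjusted p of 0.0726 to 0.195. The 3 rescalings gave 0.76 without ribosomal protein genes, 0.59 by median of ratios and 0.46 by quantiles (limma adjusted p 0.116, 0.167 and 0.28), and a filter at 5 TPM removed the gene. The remaining Fos gene, Fosl1, which encodes Fra-1, is not a member and was listed at 0 in all 6 libraries.

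In the third group, Batf, which is needed for the differentiation of several helper T cell subsets, was abundant in both populations. It was at 249, 218 and 215 TPM in CD4SP and at 134, 133 and 110 TPM in CD8SP. The replicates of each population lay close together, with a wide gap between the populations. The log2 difference was 0.85 (SE 0.129, 95% interval 0.55 to 1.14, limma adjusted p 0.00325). In all 17 alternatives it stayed between 0.54 and 0.90 with limma adjusted p between 0.000718 and 0.0145, and it passed 2-fold in none. The 3 rescalings gave 0.69 without ribosomal protein genes, 0.64 after quantile normalization and 0.54 after median-of-ratios rescaling.

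Batf3, known for its need in type 1 conventional dendritic cells, was at 4.62 TPM in CD4SP replicate 1 and listed at 0 in the other two CD4SP libraries. In CD8SP it was listed at 0 in replicate 1 and was at 0.915 and 2.64 TPM in replicates 2 and 3. The libraries showed no order by population, and the gene reached 1 TPM in a single library of each, so it was not tested. Because CD8a is also carried by type 1 conventional dendritic cells, their markers were read beside it. Clec9a was listed at 0 in all libraries, and Xcr1 was at 3.78 to 6.20 TPM in CD4SP and 2.52 to 4.39 TPM in CD8SP. The 10 markers summed to between 124 and 150 TPM in CD4SP and between 68.3 and 93.9 TPM in CD8SP, with H2-Ab1, H2-Aa and Cd74 called higher in CD4SP and Itgax called higher in CD8SP. Itgax reached 1 TPM in no CD4SP library, so it entered the test only through CD8SP and had to differ to be tested.

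Atf3, a stress-inducible member that can repress its targets, was near the lower limit of the tested range. It was at 2.36, 2.52 and 3.18 TPM in CD4SP, and in CD8SP it was at 0.491 TPM in replicate 1, listed at 0 in replicate 2 and at 0.813 TPM in replicate 3. No CD8SP library reached 1 TPM, so Atf3 entered the test only through CD4SP and had to differ to be tested at all. The log2 difference was 1.40 (SE 0.313, 95% interval 0.68 to 2.11, limma adjusted p 0.0167). Its adjusted p was 0.0303 without ribosomal protein genes, 0.0353 after median-of-ratios rescaling and 0.0623 after quantile normalization. The p stayed under 0.05 in 8 of the 13 alternatives that tested Atf3, among them the lifted fold limit, which repeats the reported p. It was 0.055 without CD8SP replicate 1 and 0.0734 without CD8SP replicate 2, with log2 differences of 1.45 and 1.16. A pseudocount of 0.1 gave a log2 difference of 2.87 with a limma adjusted p of 0.0525, and averaging CD8SP replicates 1 and 2 gave 1.29 with 0.0598, so neither called it. A filter at 5 TPM removed Atf3, as did leaving out any CD4SP library.

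The other 7 tested members reached 1 TPM in all 6 libraries. In 6 of these 7, all but Jund, every CD4SP library was above every CD8SP library, and 36.6% of all tested genes showed that pattern. None of the 8 tested members had a spread above 2 on the log2 scale within a population, as 3.51% of tested genes did, and the widest was 0.96, for Jund. The residual SD of the members ran from 0.141 for Batf to 0.397 for Jund, with a median of 0.253 over all tested genes.

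**Figure D2:**
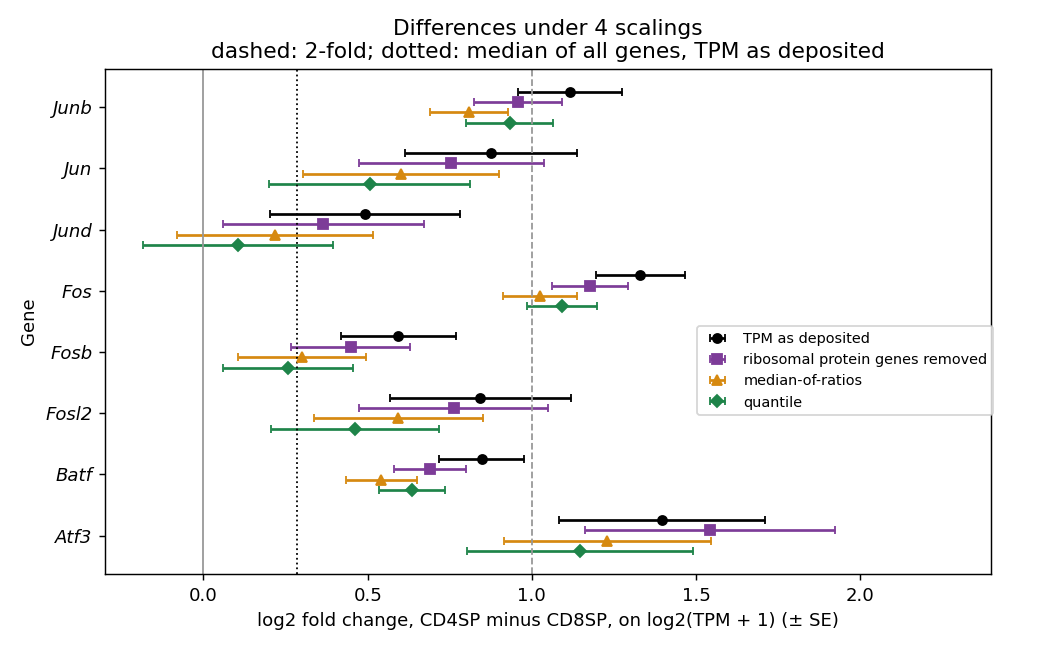
Log2 difference of each tested member, CD4SP minus CD8SP on log2(TPM + 1), with its SE, under 4 scalings of the libraries. Every point is above 0, and Fos is the single member whose points all lie to the right of the dashed 2-fold line at 1 in each scaling with an adjusted p under 0.05.

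In both populations the same members were at the top. In CD4SP the mean levels ran from Junb at 349 ± 45.5 TPM (SD, n = 3) over Batf at 227 ± 19.2 and Fos at 148 ± 9.63 to Fosb at 23.5 ± 2.31. Jun followed at 13.03 ± 4.38 TPM, Jund at 9.06 ± 2.04, Fosl2 at 5.79 ± 1.70, Atf3 at 2.69 ± 0.435 and Batf3 at 1.54 ± 2.67. The ranges of neighbours in this order overlapped for Jun and Jund and for Atf3 and Batf3. CD8SP means were 161 ± 27.4 TPM (SD, n = 3) for Junb, 126 ± 13.7 for Batf, 58.3 ± 7.18 for Fos and 15.3 ± 2.19 for Fosb. Below them came Jun at 6.42 ± 0.856 TPM, Jund at 6.34 ± 2.55, Fosl2 at 2.75 ± 0.723, Batf3 at 1.19 ± 1.34 and Atf3 at 0.434 ± 0.409. Here the overlapping neighbours were Junb and Batf, Jun and Jund, Fosl2 and Batf3, and Batf3 and Atf3. By mean level among all entries of the table, Junb ranked 404 in CD4SP and 760 in CD8SP, Batf 614 and 970, and Fos 954 and 2073. The order of the first 7 genes was the same in both populations.

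Shares within a library do not move with the scaling of that library, so the makeup of each group was read that way. Junb made up between 88.9 and 95.9% of the summed TPM of the 3 Jun genes over the 6 libraries, and the populations overlapped. Fos made up 84.3, 82.8 and 83.2% of the summed Fos genes in CD4SP and 79.7, 78.8 and 70.2% in CD8SP. Fosb made up 12.7, 14.8 and 12.4% in CD4SP and 17.4, 18.2 and 24.8% in CD8SP. Neither share overlapped between populations, so the mixture of Fos transcripts in CD8SP held relatively more Fosb. Batf made up between 97.0 and 99.6% of the summed Batf, Batf3 and Atf3 in all libraries. The shares have no test because they are scores over the members.

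**Figure D3:**
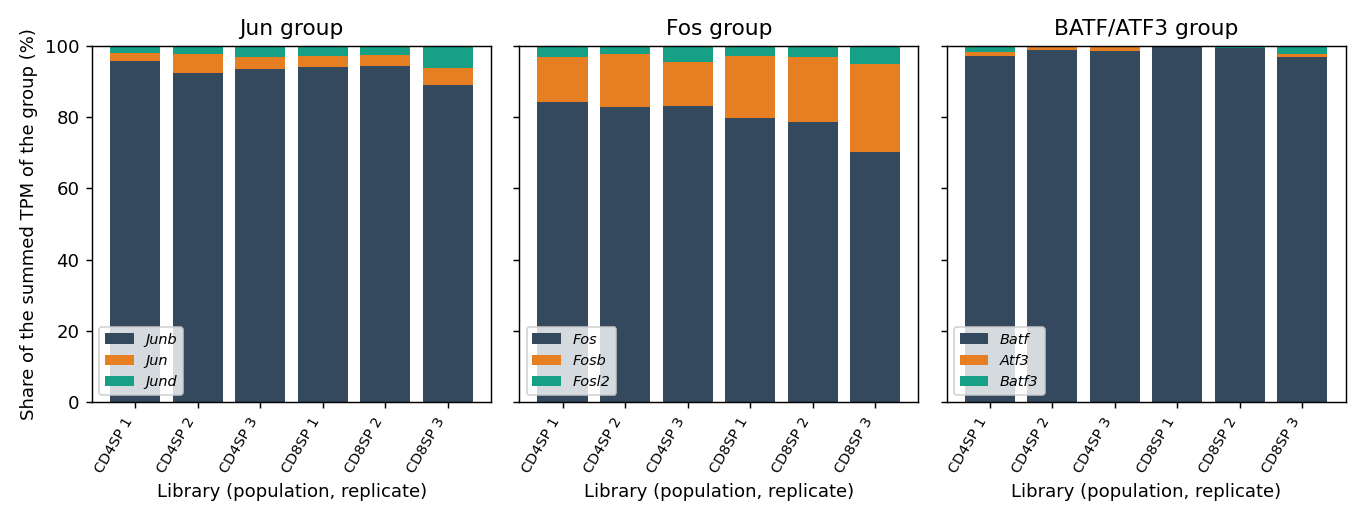
Share of each member in the summed TPM of its group, in percent, for the 6 libraries, with Jun, Fos and BATF/ATF3 groups in separate panels. Junb, Fos and Batf hold most of their group in every library, and the Fosb share is larger in each CD8SP library than in any CD4SP library.

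Ratios between the 3 abundant members were likewise free of library scaling. Fos relative to Batf was 0.637, 0.658 and 0.657 in CD4SP and 0.459, 0.473 and 0.454 in CD8SP. The spread of this ratio within a population was small beside the gap between populations. Fos relative to Junb was 0.404, 0.474 and 0.402 in CD4SP and 0.332, 0.383 and 0.380 in CD8SP. Batf relative to Junb was 0.634, 0.721 and 0.611 in CD4SP and 0.722, 0.809 and 0.836 in CD8SP. Both of these also separated the populations, the latter narrowly, between CD4SP replicate 2 and CD8SP replicate 1. Fos was thus higher in CD4SP relative to Batf and to Junb within each library, and Batf lower relative to Junb.

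**Figure D4:**
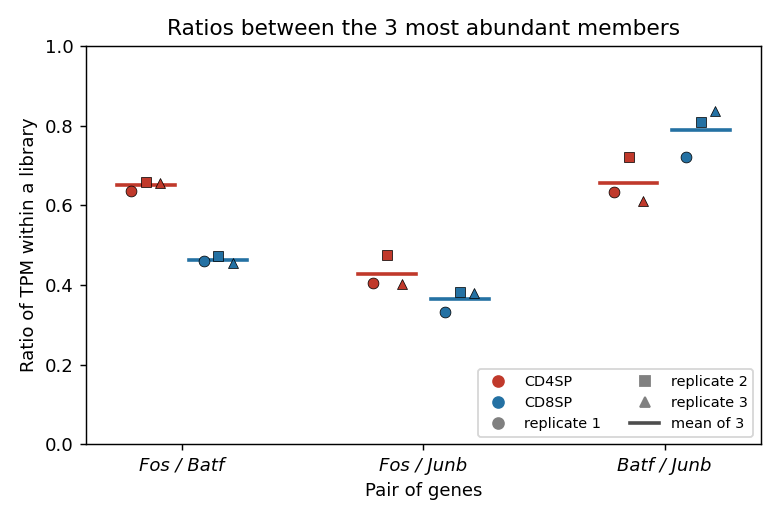
Ratio of TPM within a library for Fos over Batf, Fos over Junb and Batf over Junb, with each library as a point and the mean of 3 as a bar. Fos over Batf lies between 0.637 and 0.658 in CD4SP and between 0.454 and 0.473 in CD8SP.

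Genes with the most similar profile were taken as those with the smallest root mean square difference from a called member in log2 values centred on the mean of the 6 libraries, among 10468 other tested genes. For Junb these were Tceb3 (0.046) and Rab23 (0.060), and for Fos they were Itgae (0.057) and Map2k3 (0.060). The weaker Atf3 had no profile as close, with Hist1h3h at 0.143 and Gldc at 0.144. Since 6 libraries in 2 populations define each profile, genes with a like difference between populations rank first.

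Other basic leucine zipper genes were read beside the members. Of 34 listed, 24 were tested, 5 were called higher in CD4SP and none higher in CD8SP, with a median log2 difference of 0.47. Over all tested genes 7.92% were called higher in CD4SP and the median was 0.28, and most called genes of any kind were higher in CD4SP. Maf, a regulator of Il10 and Il4 expression, had the widest difference of them, at 42.2, 53.6 and 69.7 TPM in CD4SP and at 2.76, 3.40 and 1.36 TPM in CD8SP, a log2 difference of 4.02 (SE 0.285, limma adjusted p 7.19e-05). Crem, a cyclic AMP response element modulator, was at 38.4, 30.6 and 40.3 TPM in CD4SP and at 10.1, 10.4 and 14.5 TPM in CD8SP, a log2 difference of 1.57 (limma adjusted p 0.00132). Small Maf gene Mafg had a log2 difference of 1.46 (limma adjusted p 0.00244) and Nfil3, a repressor with roles in innate lymphocytes and helper cells, one of 1.32 (limma adjusted p 0.0126). The fifth was Xbp1, of the unfolded protein response, called here but not after any of the 3 rescalings. Xbp1 was also not called without CD4SP replicate 1 or without CD4SP replicate 3. Nfil3 was not called after quantile normalization or without CD4SP replicate 3 (1.16, limma adjusted p 0.0507). In contrast Atf4, a stress-response gene at 264 to 312 TPM over all libraries, had a log2 difference of 0.10 (limma adjusted p 0.518). Jdp2, which lies between Fos and Batf, was listed at 0 in all CD4SP libraries and in CD8SP replicate 3, and was at 1.31 and 1.76 TPM in CD8SP replicates 1 and 2. Batf2 was listed at 0 in all 6 libraries.

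Upstream of AP-1, the MAP kinase cascade links the T cell receptor and stress signals to Jun and Fos. Of 22 listed genes, 21 were found and tested, 2 were called higher in CD4SP and none higher in CD8SP, a share near the 7.92% of all tested genes, with a median log2 difference of 0.47. Map2k3, a kinase of the p38 branch, was at 127, 124 and 109 TPM in CD4SP and at 52.5, 54.4 and 40.7 TPM in CD8SP, a log2 difference of 1.28 (SE 0.151, limma adjusted p 0.00101). Rasgrp1, the exchange factor that links the T cell receptor to Ras, was at 121, 93.5 and 126 TPM against 60.01, 57.5 and 47.2 TPM, a log2 difference of 1.03 (SE 0.162, limma adjusted p 0.00378). Neither was called after median-of-ratios rescaling, and Rasgrp1 was called after none of the 3 rescalings. Rasgrp1 also fell under 2-fold without CD4SP replicate 1 (0.98), CD4SP replicate 3 (0.95) or CD8SP replicate 3 (0.93). In CD8SP replicate 1, Map2k7 was at 0.596 TPM against 27.7 to 36.1 TPM in the other 5, which set its log2 difference of 1.57 (limma adjusted p 0.28). A further list of 9 genes held the serum response factor and its partners, which drive Fos and Egr1 transcription, and kinases of the Rps6ka family. Of this list the kinase gene Rps6ka5 alone was called (log2 difference 1.04, limma adjusted p 0.0414), and it was called in 5 of 16 alternatives. It was not called without any single library but CD4SP replicate 1, with log2 differences of 0.83 to 1.18 and limma adjusted p of 0.0642 to 0.135. Elk3, a ternary complex factor, was at 32.0, 28.9 and 27.1 TPM in CD4SP and at 13.02, 16.7 and 13.1 TPM in CD8SP, a log2 difference of 0.997 (limma adjusted p 0.0056) just under 2-fold. It passed the adjusted p in all 17 alternatives and was called in 6 of them. Srf itself overlapped between populations, with 20.4 to 27.7 TPM in CD4SP and 17.4 to 23.2 TPM in CD8SP.

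Of the DNA-binding partners of AP-1 and BATF, 8 were listed and tested and 3 were called higher in CD4SP, with a median log2 difference of 0.66, beside 7.92% and 0.28 over all tested genes. Irf4, the partner of BATF at composite elements, was at 27.5, 11.9 and 16.1 TPM in CD4SP and at 8.91, 7.48 and 5.25 TPM in CD8SP. It did not overlap, and its log2 difference was 1.19 (SE 0.315, limma adjusted p 0.0306), but it was called in 9 of 17 alternatives and not by median-of-ratios or quantile scaling. Its limma adjusted p was 0.0747 without CD4SP replicate 1, 0.0745 without CD4SP replicate 3, 0.0712 without CD8SP replicate 2 and 0.0999 without CD8SP replicate 3, at log2 differences of 0.88 to 1.25. Nfatc1, an NFAT gene induced by activation, had a log2 difference of 1.37 (SE 0.275, limma adjusted p 0.0106). Runx1 had one of 1.45 (SE 0.202, limma adjusted p 0.00221), and both were called in 17 of 17 alternatives. Reads of Runx1 can also come from the Runx1-p2a-Hoxa9 cassette, which TPM by gene does not separate. Irf8 passed the adjusted p but not the fold, and Nfatc2, Nfatc3 and Runx3 passed neither. Ets1 was at 230, 3.23 and 2.94 TPM in CD4SP and at 101 to 108 TPM in CD8SP, so CD4SP replicates 2 and 3 set its log2 difference of -2.75 (limma adjusted p 0.173).

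Other immediate-early genes, many of which respond to the same signals as Fos and Junb, were higher in CD4SP in part. Of 30 listed, 26 were tested, 9 were called higher in CD4SP and none higher in CD8SP, with a median log2 difference of 0.70. Over all genes 7.92% were called higher in CD4SP, the median was 0.28, and 81.5% of calls went that way. The same 9 genes were called after each of the 3 rescalings. Egr2 was at 9.17, 13.3 and 11.02 TPM in CD4SP, and in CD8SP at 2.73 and 2.32 TPM in replicates 1 and 2 and listed at 0 in replicate 3 (log2 difference 2.38, SE 0.476, limma adjusted p 0.0104), and a pseudocount of 0.1 ended its call (limma adjusted p 0.0611). Nr4a1, which encodes the receptor-signal reporter Nur77, was at 36.6, 40.4 and 30.1 TPM in CD4SP and at 7.48, 6.09 and 6.26 TPM in CD8SP (log2 difference 2.26, SE 0.185, limma adjusted p 0.000154). Gadd45b had a log2 difference of 1.81 (limma adjusted p 0.000234) and Dusp5, a phosphatase that inactivates ERK, one of 1.79 (limma adjusted p 0.0117). The remaining called genes were Klf4, Dusp1, Zfp36l1, Egr1 and Nfkbia. Not all immediate-early genes were higher: Nr4a2, Myc, Ier3 and Dusp2 had log2 differences of -0.07, -0.22, -0.18 and -0.17, with limma adjusted p of 0.843, 0.55, 0.689 and 0.22. Tnfaip3 was at 245, 190 and 1.26 TPM in CD4SP against 118 to 136 TPM in CD8SP, so CD4SP replicate 3 set its log2 difference of -1.45 (limma adjusted p 0.515).

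Immediate-early genes can also be induced while cells are dissociated and sorted, and genes of the heat shock response were read for that reason. Of 10 listed, 7 were tested and limma called 0, with a median log2 difference of -0.16, against 9.73% called and a median of 0.28 over all genes. After median-of-ratios rescaling the list's median was -0.47, after quantile normalization -0.25 and without ribosomal protein genes -0.32, with 0 called and 4, 3 and 4 genes at an unadjusted p under 0.05. In each of these 1 of the 7 was higher in CD4SP, against 3 as reported. As reported, 2 had an unadjusted p under 0.05. These were Dnajb1, higher in CD4SP by 0.48 on the log2 scale (limma adjusted p 0.0375), and Hspe1, with -0.66 (limma adjusted p 0.00869). The inducible Hspa1a was listed at 0 in all CD4SP libraries and was at no more than 0.197 TPM in CD8SP, and Hspa1b reached 1.40 TPM in CD4SP replicate 2 and less elsewhere. How long each population was held before lysis is not given in the sources used here, and the part of handling in the members' levels was not tested.

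Genes known as AP-1 targets in T cells differed in both directions. Of 24 listed, 17 were tested, 9 were called with higher levels in CD4SP and 2 with higher levels in CD8SP, with a median log2 difference of 1.15, while 9.73% of all tested genes were called in either direction and 7.92% as higher in CD4SP. Il2ra, the interleukin 2 receptor alpha chain, was at 95.7, 92.0 and 82.1 TPM in CD4SP and at 8.77, 8.46 and 6.31 TPM in CD8SP, a log2 difference of 3.37 (SE 0.170, limma adjusted p 1.28e-05). The cytokine genes Il10, Il17a and Il4 had log2 differences of 3.13, 3.01 and 2.86 (limma adjusted p 0.00608, 0.000759 and 0.000409). Il4 was listed at 0 in all CD8SP libraries and Il17a in all but replicate 2. Neither reached 1 TPM in any CD8SP library, so both entered the test only through CD4SP and had to differ to be tested. Ctla4, Icos, Il2, Prdm1 and Cd44 were also called, of which Cd44 was not called after any of the 3 rescalings. In the other direction, the chemokine genes Ccl3 and Ccl4 had log2 differences of -1.91 and -1.61 (limma adjusted p 0.0159 and 0.000261). Without CD8SP replicate 3, Ccl4 was called but Ccl3 was not. Ifng was at 62.3 to 72.1 TPM in CD4SP and 78.2 to 83.4 TPM in CD8SP, a log2 difference of -0.27 (limma adjusted p 0.144). Il2ra and Ctla4 also stand in the list of regulatory T cell markers. In that list Foxp3 was at 142, 6.56 and 167 TPM in CD4SP and at 7.48, 7.48 and 10.05 TPM in CD8SP, so CD4SP replicate 2 was at the CD8SP level. The other 11 markers of that list were above every CD8SP library in this replicate.

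**Figure D5:**
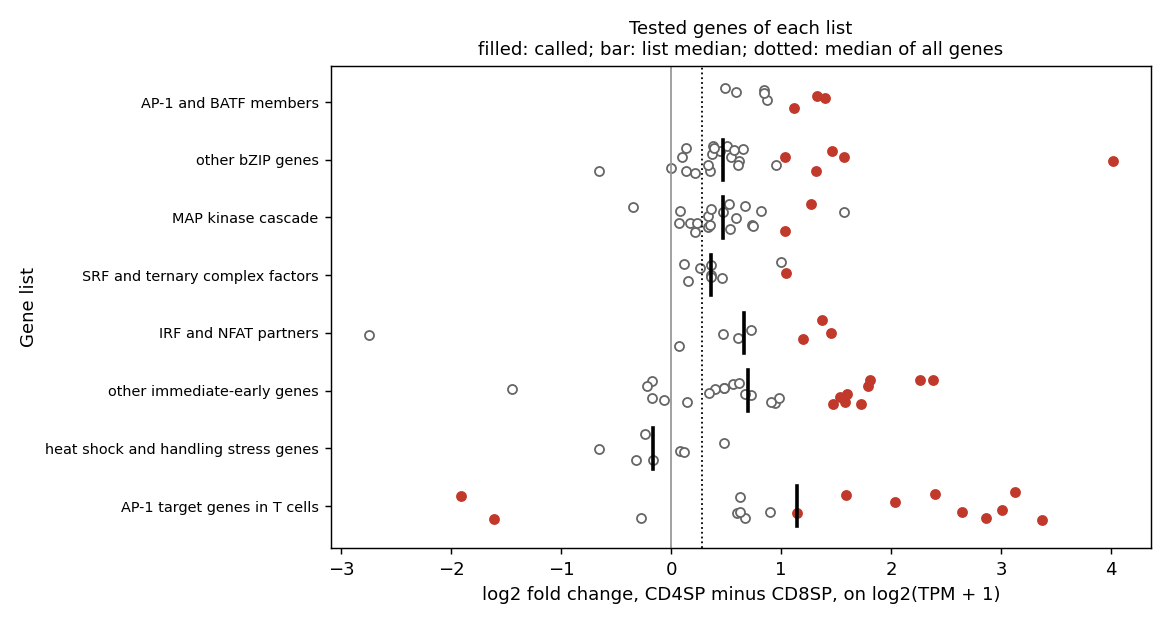
Log2 difference, CD4SP minus CD8SP on log2(TPM + 1), of each tested gene in the AP-1 and BATF set and in 7 lists, with called genes filled, a bar at the median of each of the 7 lists and a dotted line at the median of all tested genes, 0.28. Medians run from -0.16 for heat shock genes to 1.15 for AP-1 target genes.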

How the data were processed

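The authors amplified cDNA of 1000 sorted cells (whole-transcriptome kit), prepared libraries with a transposase, aligned reads to mm10 with HISAT2 and estimated abundance with StringTie. The deposited values are TPM, with 1 column for each of the 6 libraries, and sum to 997896 to 998100 per library. Their annotation, use of strand and handling of duplicate reads are not given in the sources used here. TPM keeps no depth, so no counting interval could be given, and an exact 0 may be a failed estimate.

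Groups and replicate numbers came from sample titles. A gene was tested where 3 or more libraries reached 1 TPM (10476 of 23420). Values were analysed as log2(TPM + 1), which understates changes of low genes, with limma 3.58.1 (lmFit, eBayes with trend, R 4.3.3), population as the sole factor and Benjamini-Hochberg adjustment over all tested genes. TPM are not counts, so no count model was used, although the study named one for its own comparisons. The pipeline was tested on simulated data. Named genes were all members, up to 4 called genes of largest difference per list, the 2 nearest profiles of each called member and markers. The result for 1 of the listed markers is not reported here. Any gene outside these was picked with its values in view. The members and lists were chosen with earlier results of these data known, and the target, partner and marker lists were set from general knowledge. Overlaps used GENCODE M21, and blastn 2.17.0 searched for near-identical transcripts (95% identity over 200 nt), which found only the antisense overlaps of Jun and Jund. The alternatives comprised 3 rescalings, a 0.1 pseudocount, filters at none and 5 TPM, a flat variance prior, weighted libraries, a replicate block, no fold limit, averaged CD8SP replicates 1 and 2, and each library left out. Those 2 replicates were averaged as the most alike, with a median absolute log2 difference of 0.11 over tested genes against 0.23 to 0.37 for the other pairs within a population.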

Additional observations from a re-analysis of the deposited data

How the results depend on the processing

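The log2 difference of each tested member kept its sign in every alternative that tested it, 17 for most, 16 for Fosl2 and 13 for Atf3, both of which a filter at 5 TPM removed. The filters, the flat variance prior, the replicate block and the lifted fold limit leave a log2 difference unchanged, so they could not change a sign. With the fold limit lifted, the adjusted p also repeats the reported one. Fos was called in every alternative, while Junb and Batf kept a limma adjusted p under 0.05 in every alternative. Members called numbered 3 as reported, 1 after quantile normalization, 4 with library weights (Fosl2 added), 6 by adjusted p alone and 2 to 3 with 1 library left out. Genes called numbered 1019 as reported, 2183 by adjusted p alone and 752 to 1042 with 1 library left out. Other basic leucine zipper genes called numbered 5, with 3 after quantile normalization and 3 to 6 with 1 library left out, the 3 without CD4SP replicate 3. MAP kinase genes called numbered 2, with 0 after median-of-ratios rescaling (4 at an unadjusted p under 0.05), 1 after quantile normalization, 1 without ribosomal protein genes, 4 by adjusted p alone and 1 to 2 with 1 library left out, the 1 without CD4SP replicate 3 or CD8SP replicate 3. In the list of the serum response factor, its partners and Rps6ka kinases, genes called numbered 1, with 2 at a pseudocount of 0.1 and 2 by adjusted p alone. The count was 0 without a filter, with a filter at 5 TPM, after any of the 3 rescalings and with the replicate block (1 to 3 at an unadjusted p under 0.05). That count was 0 to 1 with 1 library left out, the 0 without CD8SP replicate 1 or CD8SP replicate 3, and the gene called was Rps6ka5 without CD4SP replicate 1 but Elk3 without CD4SP replicate 2, CD4SP replicate 3 or CD8SP replicate 2. Immediate-early genes called rose from 9 to 17, and heat shock genes from 0 to 2, by adjusted p alone. The cause of these shifts was not tested beyond the fold limit itself. For the paired analysis, same-numbered libraries had correlations of 0.052, -0.017 and 0.089 between their deviations from the population means, so the number was not used as a block in the comparisons, and whether same-numbered libraries share a mouse stays unknown. The replicate block gave 997 genes called and the same 3 members, while Jun (0.0681) and Fosb (0.0958) no longer passed the limma adjusted p.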
